A study of Mus musculus with 8 samples.

Results

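The integrin and laminin genes of the mouse were followed in whole liver of a bile duct cancer model, with and without deletion of Keap1. The members are all genes with a named array probe whose symbol is that of an integrin alpha or beta subunit or of a laminin alpha, beta or gamma chain. The rule found 35 such genes, 24 integrin subunits and 11 laminin chains, on 46 probes, out of 19751 named genes in all. The rule used symbols alone and no measured value, but this set of genes was chosen with earlier results of these data known. The integrin genes Itga10 and Itgae have no named probe here and were not analysed. Of the 35 members, 33 were tested, and Itgad and Itgb8 were well above background on fewer than 2 of 8 arrays.

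Total RNA of whole liver was measured on 1-colour microarrays, 1 array per mouse, in 4 groups of 2 mice. KPKM are AKP::Keap1 males, KPM are AKP males, KPKF are AKP::Keap1 females and KPF are AKP females. In all 4 groups the liver expresses an activated oncogene together with mutant p53 (R172H), and the AKP::Keap1 mice also lack Keap1, the adaptor that hands the transcription factor Nrf2 to degradation. Livers without these alleles were not analysed here, and the age of the mice and the driver of the liver-specific alleles are not given in the sources used here. The labels do not say whether littermates were used, so the p-values measure the spread between these mice.

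Keap1 itself, given on the scale used throughout, the log2 signal relative to the 75th percentile of the array, was -1.35 and -1.40 in KPKM against 1.83 and 2.14 in KPM mice, and -0.52 and -0.72 in KPKF against 1.68 and 1.77 in KPF mice. Its mean difference over both sexes was -2.85 ± 0.11 (SE, limma adjusted p = 0.00018). Each array had 65.7% to 70.7% of its spots well above background and none saturated. The 2 mice of a group correlated at 0.9895 or more over all genes, a description only because genes are not independent. Each group was hybridised on a slide of its own, so slide and group cannot be told apart. The scan days of males and females also differ, so sex and scan day cannot be told apart.

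Laminins are secreted trimers of an alpha, a beta and a gamma chain that polymerise into the sheet of a basement membrane. Integrins are cell surface receptors, each a pair of an alpha and a beta subunit, that bind laminin, collagen, fibronectin and other ligands outside the cell and connect to the actin or keratin skeleton inside it. In liver, bile duct epithelium rests on a laminin-rich basement membrane and carries laminin-binding integrins, whereas hepatocytes lie beside a space without a continuous one. Leukocytes use a separate set of integrins to adhere and migrate.

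The promoters of 4 members are shown as examples, chosen with their values known, of members that were called higher (Itgb6, Lamb3 and Itga2) and lower (Itgb1) and have an entry in the promoter table. The sequences are from RefSeq on GRCm38.p6, 250 bases each on the strand of the gene, ending at the base before its most upstream start. They lie at chr2:60722604-60722853 on the minus strand (Itgb6), chr1:193301744-193301993 on the plus strand (Lamb3), chr13:114932101-114932350 on the minus strand (Itga2) and chr8:128685404-128685653 on the plus strand (Itgb1). Capitals mark matches to TGACNNNGC, the core of the antioxidant response element bound by Nrf2, and to GGAATG, bound by TEAD factors, on either strand.
Itgb6: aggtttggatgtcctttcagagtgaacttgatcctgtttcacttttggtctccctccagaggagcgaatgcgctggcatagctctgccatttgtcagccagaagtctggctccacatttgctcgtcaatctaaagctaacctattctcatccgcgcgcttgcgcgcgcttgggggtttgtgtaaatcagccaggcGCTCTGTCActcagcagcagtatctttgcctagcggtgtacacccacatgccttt
Lamb3: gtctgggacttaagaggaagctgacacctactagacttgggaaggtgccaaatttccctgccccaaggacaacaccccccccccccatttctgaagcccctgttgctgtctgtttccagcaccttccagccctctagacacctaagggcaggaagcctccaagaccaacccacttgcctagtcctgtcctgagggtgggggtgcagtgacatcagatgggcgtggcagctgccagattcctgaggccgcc
Itga2: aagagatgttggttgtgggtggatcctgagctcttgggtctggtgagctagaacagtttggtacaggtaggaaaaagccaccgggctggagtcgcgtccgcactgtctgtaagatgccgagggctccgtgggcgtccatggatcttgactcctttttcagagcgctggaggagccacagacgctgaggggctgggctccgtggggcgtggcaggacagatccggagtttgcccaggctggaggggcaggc
Itgb1: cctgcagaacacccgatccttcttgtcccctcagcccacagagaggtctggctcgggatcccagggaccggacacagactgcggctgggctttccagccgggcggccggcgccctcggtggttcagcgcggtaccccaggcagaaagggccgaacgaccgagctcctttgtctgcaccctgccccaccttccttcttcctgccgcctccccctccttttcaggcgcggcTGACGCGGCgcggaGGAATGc
Itgb6 holds 1 antioxidant response element core and Itgb1 holds 1 such core and 1 TEAD match, while the windows of Lamb3 and Itga2 hold none of the letters searched. Promoters were found for 21 of the 33 tested members. The antioxidant response element core was present in 3 of these 21 (Itgb6, Itga9 and Itgb1), against 2740 of 27025 mouse promoters of the same length. The TEAD letters were present in 1 of 21 (Itgb1), against 12.6%. The AP-1 letters TGANTCA were present in 1 of 21 (Itgax), against 6.85%. The matches in Itgb1 do not overlap each other. These are matches of letters in these windows and say nothing of binding.

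Loss of Keap1 was accompanied by higher levels of a large part of the laminin and integrin genes. As the mean over both sexes, 17 of the 33 tested members were higher and 2 were lower in AKP::Keap1 than in AKP livers (limma, Benjamini-Hochberg adjusted p below 0.05 over 15834 genes). Of the 17, Itga2 and Itgb6 passed the background filter through AKP::Keap1 arrays alone, so a difference was built into their selection. With only probes well above background on all 8 arrays, 15 of 31 members were higher and 2 lower. In that setting the median over the members was 0.49, and 41.2% of all genes were called. The shares, median and counts that follow include Itga2 and Itgb6. The share called was 57.6% of members, against 39.1% of all genes tested, of which 21.8% were called higher and 17.2% lower. The median difference was 0.55 over the members and -0.00092 over all genes. Of the laminin chains 8 of 11 rose and none fell, and of the integrin subunits 9 of 22 rose and 2 fell. For 12 members (36.4%), Itga2 and Itgb6 among them, all 4 AKP::Keap1 mice lay above all 4 AKP mice, which held for 15.5% of all genes. For 2 members all 4 lay below, which held for 11.5% of all genes. Among all genes the median difference also moved with brightness, being 0.50 in the dimmest of 10 equal classes of mean level and -0.16 in the brightest. Of the members, 2 lie in the dimmest class and 1 in the brightest, and the part of brightness in the counts was not tested. Because whole tissue was measured, more cells of a type and more RNA per cell cannot be told apart in any result below.

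**Figure D1:**
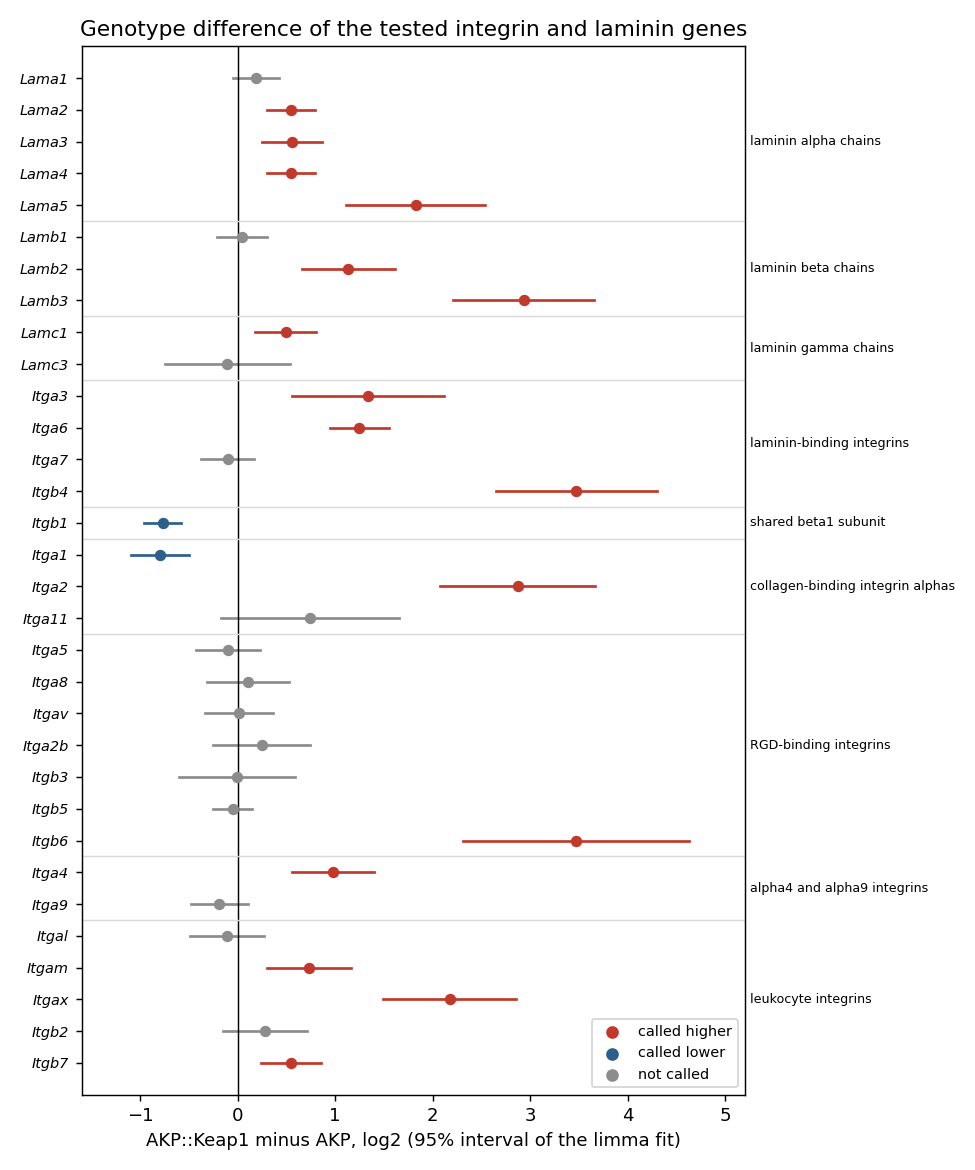
Difference between AKP::Keap1 and AKP livers for 32 of the tested members, as the mean over both sexes on the log2 scale, grouped by role, with bars for the 95% interval of the limma fit. Itgb4 (3.47), Itgb6 (3.47), Lamb3 (2.93) and Itga2 (2.87) lie farthest to the right, those of Itgb6 and Itga2 including signals below background in AKP livers, and Itgb1 (-0.77) and Itga1 (-0.79) are the 2 members called lower.

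Among the laminin genes described here, Lamb3 rose most. Its product is a chain of the laminin that anchors epithelia through hemidesmosomes, as is that of Lama3. Lamb3 was -0.02 and 0.21 in KPKM against -2.97 and -2.95 in KPM mice, and -0.88 and 0.52 in KPKF against -2.86 and -3.12 in KPF mice. All 4 AKP::Keap1 mice lay above all AKP mice, and the difference of 2.93 ± 0.30 (SE, adjusted p = 0.0017) is 7.64-fold, with a 95% interval from 4.62 to 12.6. Intervals here and below are those of single genes, not adjusted for the number of genes. Lama3 rose by less, by 0.56 ± 0.13 (SE, adjusted p = 0.016), on the brighter of its probes. There KPKM mice had -2.60 and -2.77 against -2.84 and -3.26 in KPM mice, and KPKF mice had -3.18 and -2.97 against -3.78 and -3.89 in KPF mice. A dimmer Lama3 probe, well above background on 6 of 8 arrays, gave a larger difference of 2.02, or 3.22 in females and 0.83 in males. The direction of the Lama3 change is the same on both probes and its size is not. The Lama3 call was lost with quantile normalization (0.38, adjusted p = 0.0578), normexp (0.19, adjusted p = 0.122) or the slide as a random block (adjusted p = 0.0558). It was also lost without the first KPKM mouse (adjusted p = 0.0547), the second KPF mouse (0.0533) or the second KPKF mouse (0.0508).

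Lama5 and Lamb2, chains of laminins found in mature epithelial and vascular basement membranes, rose as well. Lama5 was 1.16 and 1.17 in KPKM against -0.79 and -0.90 in KPM mice, and 0.15 and 1.51 in KPKF against -0.63 and -0.99 in KPF mice. The difference was 1.82 ± 0.29 (SE, adjusted p = 0.0057), or 3.54-fold with an interval from 2.16 to 5.80. Lamb2 was -1.16 and -1.12 in KPKM against -2.16 and -2.34 in KPM mice, and -1.45 and -0.62 in KPKF against -2.04 and -2.33 in KPF mice, a difference of 1.13 ± 0.20 (SE, adjusted p = 0.0071). Neither gene had overlapping groups, and in both the 2 KPKF mice lay farther apart than the 2 KPKM mice.

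Lama2 and Lama4, alpha chains known from muscle, mesenchymal and endothelial basement membranes, and the widely used gamma chain Lamc1 rose by less than these. Lama2 was -1.29 and -1.25 in KPKM against -2.06 and -2.09 in KPM mice, and -1.48 and -1.31 in KPKF against -1.85 and -1.54 in KPF mice. Its difference was 0.55 ± 0.10 (SE, adjusted p = 0.0090), and within males alone it was 0.80 (adjusted p = 0.014). Lama4 was -1.42 and -1.55 in KPKM against -2.44 and -2.31 in KPM mice, while KPKF mice had -1.42 and -1.15 against -1.54 and -1.42 in KPF mice. The difference was 0.55 ± 0.10 (SE, adjusted p = 0.0089), and the value in males was 0.89 (adjusted p = 0.011), while the nearest mice of the female groups both lay at -1.42. Lamc1 differed by 0.49 ± 0.13 (SE, adjusted p = 0.027), by 0.20 in females and by 0.79 in males. For Lama4 and Lamc1 the call was lost when the slide entered the fit as a random block (adjusted p = 0.0713 and 0.11). Each slide holds 1 group, so that fit cannot tell a slide effect from a genotype difference that varies with sex. The Lamc1 call was also lost without the first KPM mouse (adjusted p = 0.0738), either KPKM mouse (0.0763 and 0.0726), the first KPF mouse (0.0732) or the second KPKF mouse (0.0769).

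Lama1, Lamb1 and Lamc3 were not called. Lama1, the alpha chain of early embryonic basement membranes, differed by 0.19 (95% interval -0.05 to 0.43). Lamb1, the most widely used beta chain, differed by 0.05 (-0.21 to 0.30). Lamc3 was dim, between -5.03 and -4.09 on the 8 arrays, and differed by -0.11 with a wide interval from -0.75 to 0.53.

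**Figure D2:**
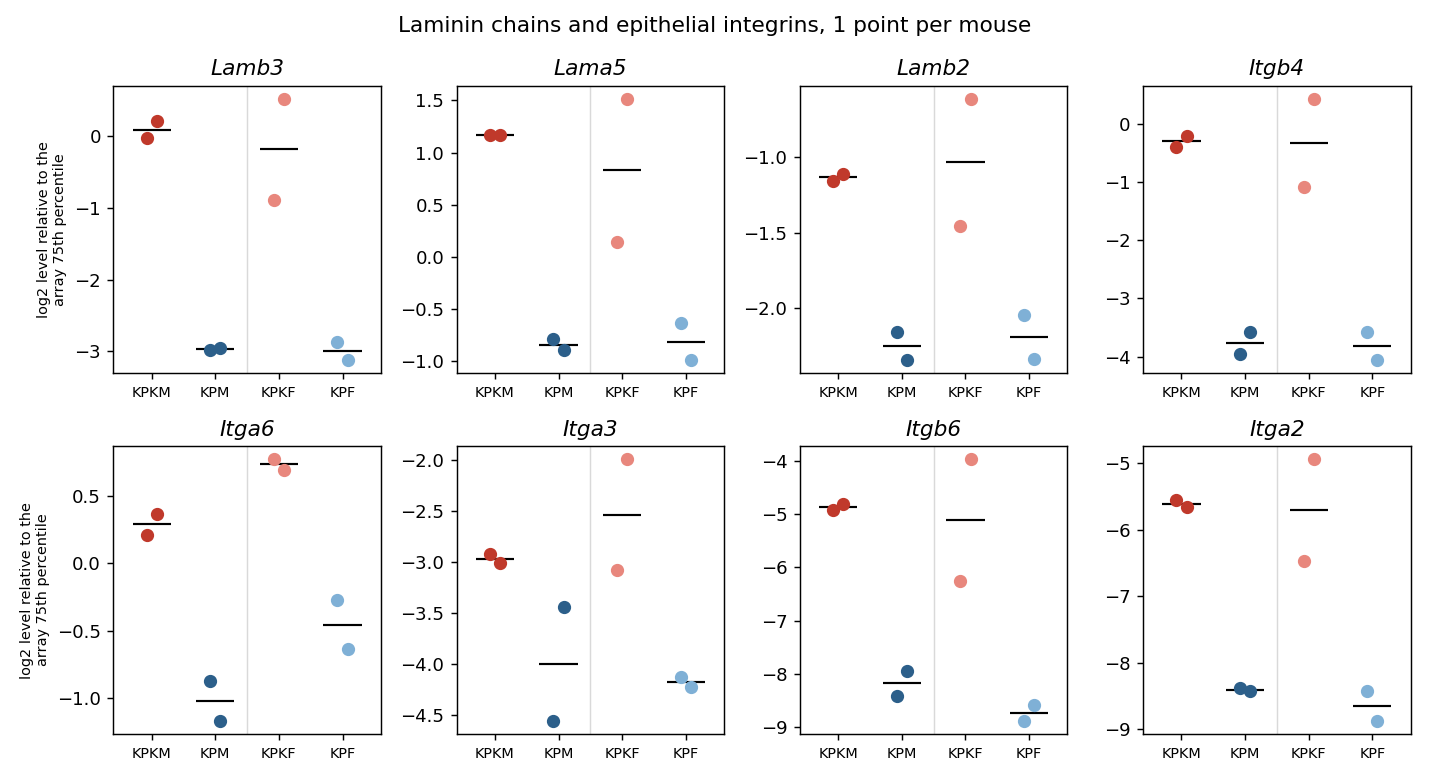
Level of 8 laminin and integrin genes in each mouse, on the log2 scale relative to the 75th percentile of the array, with 1 point per mouse and a bar at the mean of each group of 2. In all 8 panels both AKP::Keap1 groups (KPKM, KPKF) lie above the AKP groups (KPM, KPF), and in all but Itga6 the 2 KPKF mice are widely spread.

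Of the 4 tested integrin genes grouped as laminin-binding, 3 rose (Itgb4, Itga6 and Itga3) and Itga7 was not called. Itgb4 encodes the beta subunit of the hemidesmosome integrin and pairs with Itga6 alone. Itgb4 was -0.39 and -0.21 in KPKM against -3.95 and -3.57 in KPM mice, and -1.09 and 0.43 in KPKF against -3.57 and -4.06 in KPF mice. The groups were far apart, with a difference of 3.47 ± 0.34 (SE, adjusted p = 0.0015), or 11.1-fold (interval 6.28 to 19.7). Its partner Itga6 was 0.21 and 0.37 in KPKM against -0.87 and -1.17 in KPM mice, and 0.77 and 0.70 in KPKF against -0.27 and -0.64 in KPF mice. Itga6 thus differed by 1.25 ± 0.12 (SE, adjusted p = 0.0016), which is 2.38-fold (interval 1.93 to 2.93), with little spread within any group. Itga3, whose product pairs with the beta1 subunit and binds the same epithelial laminins, was -2.92 and -3.01 in KPKM against -4.56 and -3.45 in KPM mice, and -3.08 and -1.99 in KPKF against -4.13 and -4.23 in KPF mice. Its difference was 1.34 ± 0.32 (SE, adjusted p = 0.020), and the call was lost without the first or second KPKM mouse (adjusted p = 0.0575 and 0.0571) and without the first or second KPF mouse (0.0504 and 0.0615). Itga7, a laminin receptor of muscle, differed by -0.10 (95% interval -0.37 to 0.17) and was not called.

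Itga2 and Itgb6, an epithelial collagen receptor subunit and an epithelial subunit whose integrin activates latent TGF-beta, were measured in AKP::Keap1 livers only. Neither was well above background on any AKP array, so both entered the test through the AKP::Keap1 arrays alone, their change is given as a bound, and their adjusted p-values rest on AKP signals not above background. Itga2 was at least 2.11-fold higher in AKP::Keap1 livers, its group mean set against the lowest signals well above background, at least 2.31-fold in females and at least 1.92-fold in males. The measured values were -5.55 and -5.67 in KPKM against -8.38 and -8.43 in KPM mice, and -6.47 and -4.95 in KPKF against -8.43 and -8.87 in KPF mice (adjusted p = 0.0022). Itgb6 was at least 3.36-fold higher, at least 3.49-fold in females and at least 3.23-fold in males. Its measured values were -4.92 and -4.80 in KPKM against -8.42 and -7.94 in KPM mice, and -6.25 and -3.97 in KPKF against -8.88 and -8.58 in KPF mice (adjusted p = 0.0036). A second Itgb6 probe was well above background on none of the 8 arrays, so Itgb6 rests on 1 probe. With normexp background correction an offset of 50 was added to every signal before the log, which narrows differences between dim signals. Both differences shrank there, to 0.047 for Itga2 (adjusted p = 0.762) and 0.25 for Itgb6 (adjusted p = 0.232). This setting therefore cannot judge the size of the 2 changes. The male differences turned negative in it (-0.30 for Itga2 and -0.033 for Itgb6), while the male median of all genes was itself -0.23.

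Markers of biliary epithelium moved with these genes, although the marker lists here and below were chosen with earlier results of these data known. Of 12 biliary markers outside the members, 11 were higher and none was lower in AKP::Keap1 livers, with a median difference of 2.81. That is 91.7% called, against 39.1% of all genes (21.8% higher and 17.2% lower). Their mean level was -1.12 to -1.10 in KPKM against -4.03 to -3.94 in KPM mice, and -1.72 to -0.68 in KPKF against -4.64 to -3.81 in KPF mice. The defining markers Krt19, Krt7 and Epcam were well above background on all 8 arrays. The 2 KPKF mice differed from each other here too. The first KPKF mouse had a biliary mean of -1.72 and the second one of -0.68, and the first was also the lower one for Lamb3, Lama5, Lamb2, Itgb4, Itgb6, Itga2, Itga3 and Itgax. Over all tested members the first KPKF mouse was lower for 28 and higher for 5, which include Itga6 (0.77 in the first and 0.70 in the second), against 44.4% of all genes lower in it. Without the first KPKF mouse Lamb3 differed by 3.28 and Itgb4 by 3.85, and without the second they differed by 2.58 and 3.09. Of 12 hepatocyte markers, none was higher and 6 (50%) were lower, against 17.2% of all genes called lower. Their means were 5.89 to 5.93 in KPKM against 6.60 to 6.70 in KPM mice, and 5.95 to 6.21 in KPKF against 6.40 to 6.41 in KPF mice. The part of these cell types in the changes of the members was not tested.

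The 2 members that fell were Itgb1 and Itga1. Itgb1 encodes the beta1 subunit, which pairs with the alpha subunits of most collagen-, laminin- and fibronectin-binding integrins. It was 0.80 and 0.81 in KPKM against 1.14 and 1.21 in KPM mice, and 1.04 and 1.01 in KPKF against 2.24 and 2.14 in KPF mice. All 4 AKP::Keap1 mice lay below all AKP mice, and Itgb1 differed by -0.77 ± 0.08 (SE, adjusted p = 0.0016), a 1.70-fold decrease. A second, dimmer Itgb1 probe gave -1.20. The difference was -1.17 in females (adjusted p = 0.0034) and -0.37 in males (adjusted p = 0.049), and the male one lost its call under 12 of 18 alternatives. On the unscaled series matrix values the male difference was 0.13, while the male median of all genes was itself 0.48. Of the tested alpha subunits that pair with it, Itga2, Itga3, Itga4 and Itga6 rose on the same arrays while Itga1 fell, and Itga5, Itga7, Itga8, Itga9, Itga11 and Itgav were not called.

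Itga1, whose product is a collagen receptor subunit of mesenchymal and endothelial cells, was -2.53 and -2.76 in KPKM against -2.28 and -1.89 in KPM mice. In females it was -2.33 and -2.51 in KPKF against -1.38 and -1.40 in KPF mice. On this probe the groups did not overlap within either sex. The level was 1.73-fold lower, with a difference of -0.79 ± 0.12 (SE, adjusted p = 0.0049). A second, dimmer probe gave -0.27, with -0.40 in males and -0.14 in females. On it the female groups overlapped, with -2.45 and -3.26 in KPKF against -2.89 and -2.54 in KPF mice. On the series matrix values without scaling, where the median of all genes itself moved by 0.31, Itga1 differed by -0.48 and was not called (adjusted p = 0.0551). Of 12 endothelial markers, 5 were lower and none higher in AKP::Keap1 livers. That is 41.7% called, against 39.1% of all genes (21.8% higher and 17.2% lower). Their mean was -0.31 to -0.26 in KPKM against -0.11 to -0.09 in KPM mice, and -0.13 to -0.09 in KPKF against 0.09 to 0.21 in KPF mice. Of 12 stellate cell and fibroblast markers, 7 were higher and 2 lower, with 75% called. Their means were 0.15 to 0.25 in KPKM against -0.59 to -0.33 in KPM mice, and 0.24 to 0.62 in KPKF against -0.16 to -0.05 in KPF mice. The part of these cell types in the fall of Itga1 and Itgb1 or in the rise of Lama2 and Lama4 was not tested.

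The integrins that bind the RGD motif of fibronectin, vitronectin and related ligands mostly did not pass the test, with 1 called of 7 tested, against 39.1% of all genes. That 1 is Itgb6, which is given only as a bound. Itgav, the alpha subunit shared by most of them, differed by 0.01 (95% interval -0.33 to 0.36). Itgb5, a vitronectin receptor subunit, differed by -0.05 (-0.25 to 0.14). Itga5, the main fibronectin receptor subunit, differed by -0.10 (-0.42 to 0.23) and Itga8 by 0.10 (-0.32 to 0.53). The platelet integrin subunits Itga2b and Itgb3 differed by 0.25 (-0.26 to 0.75) and by -0.0042 (-0.60 to 0.59), and of 8 platelet markers only Pf4 was called, higher. Itgb3 was the 1 of 8 members with several kept probes whose probes differed in sign, with 0.45 on the other probe. The collagen-binding Itga11 of fibroblasts differed by 0.74 (-0.17 to 1.65), with KPM mice at -3.55 and -5.21, and was called only when the first of these was left out (1.16, adjusted p = 0.0172).

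Among the integrins of leukocytes, Itgax rose most. Itgax, which encodes CD11c of dendritic cells and some macrophages, was -0.64 and -0.50 in KPKM against -3.49 and -2.83 in KPM mice, and -1.08 and 0.08 in KPKF against -2.17 and -2.36 in KPF mice. The difference was 2.18 ± 0.28 (SE, adjusted p = 0.0031), or 4.52-fold (interval 2.82 to 7.24), without overlap. Itgam, encoding CD11b of monocytes, macrophages and neutrophils, was 1.41 and 0.92 in KPKM against 0.12 and -0.04 in KPM mice. In females the groups overlapped, with 0.29 and 0.83 in KPKF against 0.38 and 0.07 in KPF mice. Its difference over both sexes was 0.73 ± 0.18 (SE, adjusted p = 0.021). The Itgam call was lost with the slide as a random block (adjusted p = 0.0839) and without the second KPM mouse (0.0644), the first KPKM mouse (0.0601), the second KPF mouse (0.0676) or the second KPKF mouse (0.0529). Itgb2, the beta subunit that both share, differed by 0.28 (95% interval -0.15 to 0.71), and Itgal, encoding CD11a of lymphocytes, by -0.11 (-0.48 to 0.27).

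Itga4 and Itgb7, whose products pair with each other or with other subunits on lymphocytes and eosinophils, rose as well. Itga4 was -1.37 and -0.81 in KPKM against -2.53 and -2.27 in KPM mice, and -1.35 and -0.87 in KPKF against -1.79 and -1.74 in KPF mice. The groups did not overlap, and the difference was 0.98 ± 0.17 (SE, adjusted p = 0.0075). Itgb7 was -0.82 and -0.45 in KPKM against -1.25 and -0.96 in KPM mice, and 0.12 and 0.28 in KPKF against -0.37 and -0.48 in KPF mice, a difference of 0.55 ± 0.13 (SE, adjusted p = 0.018). The Itgb7 call was lost without the first KPM mouse (adjusted p = 0.0522), the second KPKM mouse (0.0537), the second KPF mouse (0.0561) or the second KPKF mouse (0.0543). The related Itga9 differed by -0.19 (-0.48 to 0.10) and was not called.

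Part of the markers of macrophages and monocytes, dendritic cells and neutrophils was higher in the same livers. Of 9 tested macrophage and monocyte markers 5 were higher and none lower, and their mean was 1.16 to 1.42 in KPKM against -0.14 to 0.02 in KPM mice, and 0.99 to 1.65 in KPKF against 0.02 to 0.31 in KPF mice. Of 7 dendritic cell markers 4 were higher, with means of -1.63 to -1.42 in KPKM against -2.47 to -2.27 in KPM mice, and -1.35 to -1.18 in KPKF against -2.0 to -1.74 in KPF mice. Of 11 neutrophil markers 6 were higher, with means of -1.58 to -0.23 in KPKM against -3.22 to -2.80 in KPM mice, and -1.22 to -0.62 in KPKF against -2.34 to -1.99 in KPF mice. Of the lymphocyte markers, 2 of 11 for T and NK cells (18.2%) and 1 of 7 for B and plasma cells (14.3%) were called, all higher. Over all genes 39.1% were called, 21.8% higher and 17.2% lower, so the lymphocyte shares are no larger than that of all genes. The part of these cells in the rise of Itgax, Itgam, Itga4 and Itgb7 was not tested.

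**Figure D3:**
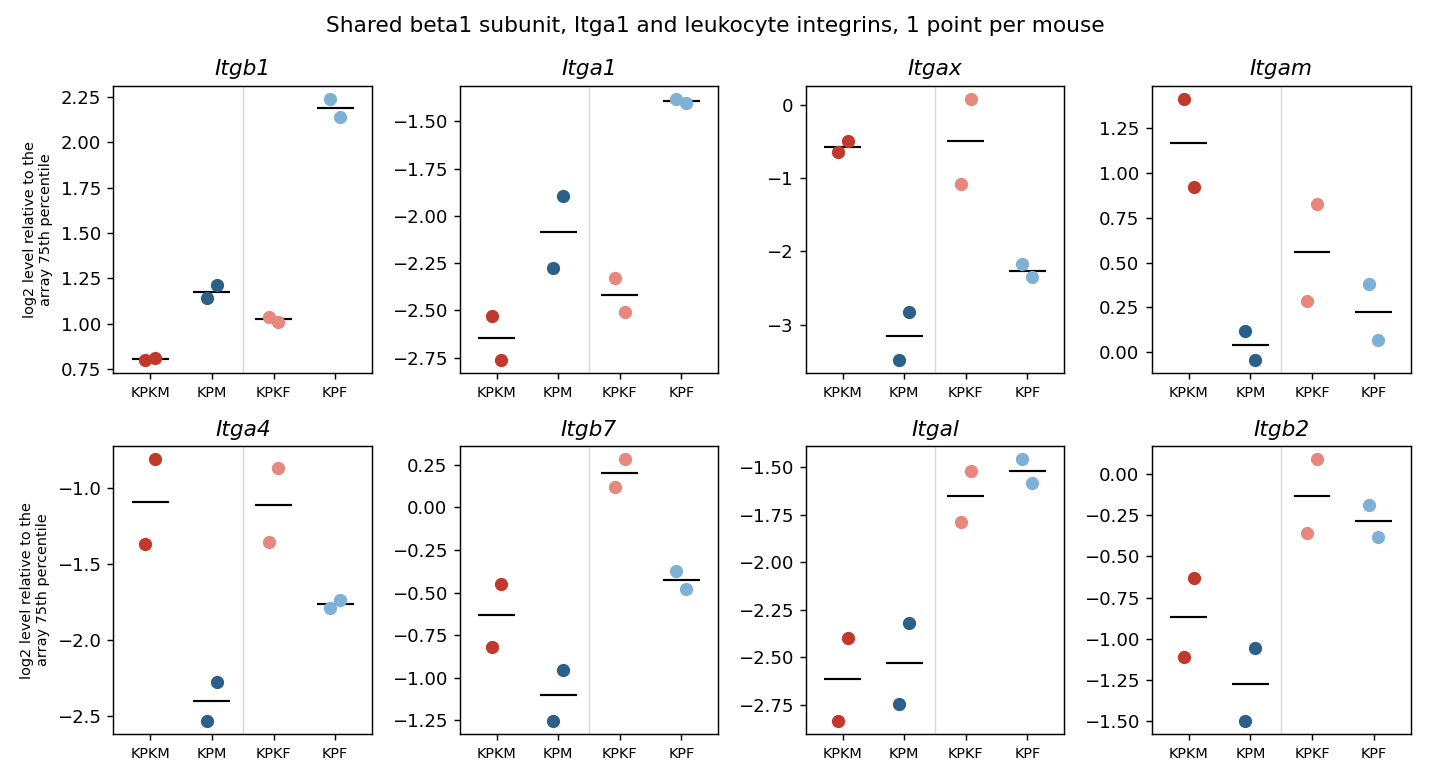
Level of Itgb1, Itga1 and 6 leukocyte integrin genes in each mouse, on the log2 scale relative to the 75th percentile of the array, with 1 point per mouse and a bar at the mean of each group of 2. Itgb1 and Itga1 are lowest in the AKP::Keap1 groups (KPKM, KPKF), Itgax and Itga4 are higher in them than in the AKP groups (KPM, KPF), and Itgal and Itgb2 separate females from males instead.

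Within the sexes, 14 members were higher and 1 was lower in KPKM than in KPM livers, against 28.2% of all genes called in that comparison (16.7% higher and 11.5% lower). In KPKF against KPF livers, 11 members were higher and 2 were lower, against 21.4% of all genes called (12.3% higher and 9.1% lower). In both sexes 10 members were called, all in the same direction, and the same count over all genes was not made. Among them were Lama5, Lamb2, Lamb3, Itga6, Itgb4, Itga2, Itgb6 and Itgax, which rose, and Itgb1, which fell. Of these, Itga2 and Itgb6 passed the background filter through AKP::Keap1 arrays alone. Called in males and not in females were Lama2, Lama4, Lamc1, Itga4 and Itgam, and called in females and not in males were Lama3, Itga3 and Itga1. Such a split does not show a difference between the sexes. The interaction of genotype with sex (difference in females minus that in males) was called for 0 of the 33 members by limma, with 4 (Itgb1, Itga9, Lama2 and Lama4) at an unadjusted p below 0.05, against 1.72% of all genes called (0.411% higher and 1.31% lower) and 23.2% at that unadjusted p. For Itgb1 the interaction was -0.79 ± 0.15 (SE, adjusted p = 0.068), and it was called with probes well above background on all 8 arrays (adjusted p = 0.0499), with the mean of its probes (-1.04, adjusted p = 0.0498) and with trended robust variances (adjusted p = 0.0348). The difference was 3.48 in females and 3.46 in males for Itgb4, 2.81 in females and 3.05 in males for Lamb3, 1.64 in females and 2.01 in males for Lama5, and 1.76 in females and 2.59 in males for Itgax. The interaction intervals of these genes are wide, from -1.63 to 1.67 for Itgb4.

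Several of these calls depended on the processing as well. The female calls of Lama5 and Lamb2 were each lost in 10 of 18 alternatives, the replicate block and females fitted alone among them, and that of Itgax in 6. The male call of Lamb2 was lost in 6 of 18 and that of Lama5 in 4. The counts within a sex depended on single mice. Without the first or second KPM mouse 4 and 7 members were higher in KPKM than in KPM livers, and without the first or second KPKM mouse 7 and 3 were. Without the first or second KPF mouse 5 and 0 members were higher in KPKF than in KPF livers, without the first or second KPKF mouse 10 and 7, and without either KPKM mouse 6. A fit on the 4 female arrays alone called 2 members higher.

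**Figure D4:**
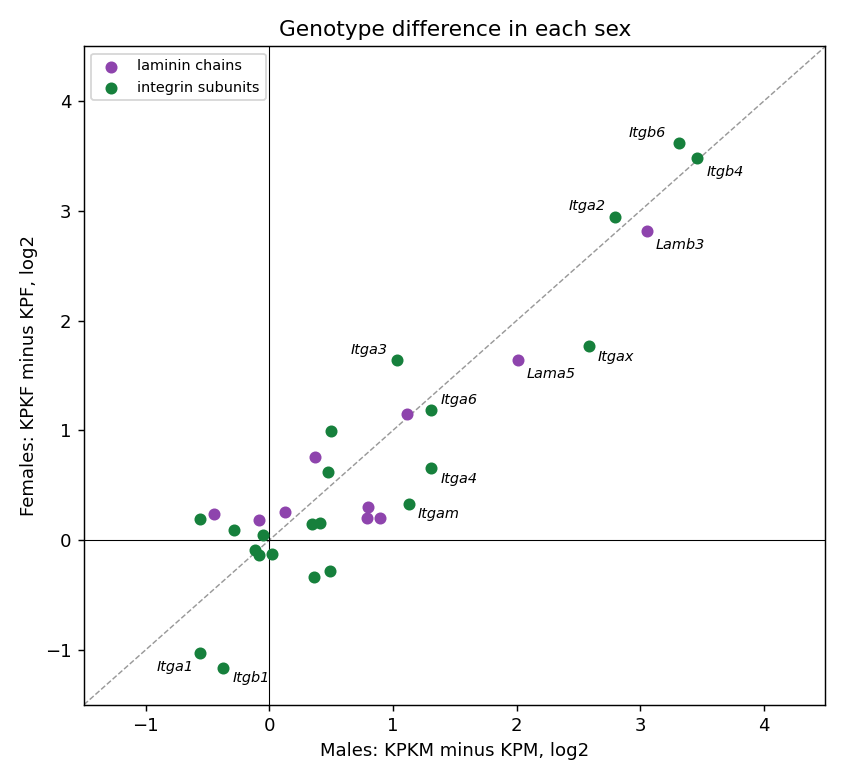
Difference between AKP::Keap1 and AKP livers in males (horizontal axis) and in females (vertical axis) for 32 of the tested members, on the log2 scale, with laminins in purple, integrins in green and a dashed line where both are equal. Itgb4, Itgb6, Lamb3 and Itga2 lie near the line above 2.7 on both axes, Itgb6 and Itga2 with signals below background in AKP livers, and Itgb1 lies below it, with -1.17 in females and -0.37 in males.

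Between the sexes, as the mean over both genotypes, 12 members were called, 11 higher and 1 lower in females than in males, against 21.1% of all genes called (10.9% higher and 10.3% lower). Itgal differed most, with -1.79 and -1.52 in KPKF against -2.84 and -2.40 in KPKM mice, and -1.46 and -1.58 in KPF against -2.75 and -2.32 in KPM mice. All 4 females lay above all 4 males, and the difference was 0.99 ± 0.15 (SE, adjusted p = 0.013), or 1.98-fold. Its partner Itgb2 was higher in females by 0.86 (adjusted p = 0.025) and Itgb7 by 0.76 (adjusted p = 0.015). Of the other members, Lamc1 (0.68), Itgb1 (0.62), Itgav (0.61), Lama4 (0.55), Itga9 (0.53), Itga6 (0.50), Itga1 (0.46) and Itgb5 (0.31) were higher in females. The Itga1 call was lost in 15 of 18 alternatives, with 0.14 on the mean of its probes (limma adjusted p = 0.492). The Itgb5 call was lost in 14 of 18, and those of Itga6, Itgav and Itga9 in 10, 9 and 8. Lama3 alone was lower in females, with a difference of -0.59 (adjusted p = 0.027). Of 11 T and NK cell markers 7 were higher in females, with means of -1.56 to -1.28 in KPKF against -2.41 to -2.06 in KPKM mice, and -1.69 to -1.68 in KPF against -2.73 to -2.27 in KPM mice. Of 7 B and plasma cell markers 4 were higher in females, with means of -2.58 to -2.39 in KPKF against -3.71 to -2.77 in KPKM mice, and -2.60 to -2.35 in KPF against -3.94 to -3.59 in KPM mice. Their part in the female levels of Itgal, Itgb2 and Itgb7 was not tested. With the slide as a random block 1 member was called by sex, and with the series matrix values 2 were. Without the first and second mouse of a group, 7 and 6 were called for KPKF, 5 and 5 for KPKM, 4 and 5 for KPF, and 3 and 9 for KPM.

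Ligands of the integrins other than laminin were described from a list of 28 genes, of which 27 were tested. By genotype 11 rose and 3 fell (51.9% called, against 39.1% of all genes, median 0.41). Spp1, which encodes osteopontin, an RGD ligand, rose by 3.28 ± 0.40 (SE, adjusted p = 0.0026). The fibrillar collagen genes Col1a1 and Col3a1 rose by 1.53 ± 0.19 and 1.22 ± 0.10 (SE, adjusted p = 0.0027 and 0.0011), and Mfge8, an RGD ligand that bridges cells, by 1.44 ± 0.17 (SE, adjusted p = 0.0026). Of the genes of plasma proteins made by hepatocytes, Fn1 differed by -0.43 (adjusted p = 0.016) and Vtn by -0.41 (adjusted p = 0.024). The fibrinogen genes Fga, Fgb and Fgg of the same list were not called lower. Postn fell by 0.31 (adjusted p = 0.026).

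Of 22 other basement membrane components and laminin receptors, 7 rose and 4 fell (50% called, against 39.1% of all genes, of which 21.8% higher and 17.2% lower, median 0.13). The collagen IV genes Col4a6, Col4a1 and Col4a2 rose by 1.88 ± 0.29, 0.74 ± 0.11 and 0.54 ± 0.10 (SE, adjusted p = 0.0048, 0.0040 and 0.0099), and Agrn, encoding the laminin-binding proteoglycan agrin, by 0.81 ± 0.20 (SE, adjusted p = 0.022). The laminin receptor gene Dag1, encoding dystroglycan, fell by 0.76 (adjusted p = 0.0034), the syndecan gene Sdc1 by 0.68 and the hemidesmosomal collagen gene Col17a1 by 0.63 (adjusted p = 0.012 for each), although Col17a1 was well above background on 4 arrays only. Ntn4, encoding a laminin-related netrin, was the 1 gene of this list called in the interaction, with -1.66 in females and 0.66 in males (adjusted p = 0.040).

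Of 33 tested cytoplasmic partners of the integrins, 5 rose and 3 fell (24.2% called, median 0.08), against 39.1% of all genes. Fermt1, the epithelial kindlin that activates integrins, was at least 5.64-fold higher in AKP::Keap1 livers and was not well above background on any AKP array, so that it entered the test (adjusted p = 0.00032) through the AKP::Keap1 arrays alone. Flna, encoding filamin A, and Parvg, encoding the leukocyte parvin, rose by 1.36 ± 0.17 and 1.14 ± 0.11 (SE, adjusted p = 0.0027 and 0.0015), and the actin linker genes Actn4 and Tln1 by 0.24 and 0.27. Pxn, encoding the focal adhesion scaffold paxillin, fell by 0.77 ± 0.14 (SE, adjusted p = 0.0079), with -1.44 in females and -0.10 in males. Dst, which encodes a linker of Itgb4 integrins to keratin, and Fermt2 fell by 0.39 and 0.40 (adjusted p = 0.024 and just under 0.05).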

How the data were processed

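Whole liver RNA of 8 mice was measured on 1-colour Agilent mouse arrays, 1 array per mouse and 2 mice in each of 4 groups of sex and genotype. Per the labels' protocols, Cy3 label was put on RNA amplified from 500 ng per liver. The values used are the processed signals deposited per array, a linear intensity from which Feature Extraction had already subtracted background (version 10.7.3.1 and build mm9 per the file headers, version 10.1 per the submitters' processing notes). The deposited series matrix holds the same intensity values (355176 of 355176 equal), with no scaling between arrays, so its columns are linear and uncentred.

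Control spots and outlier flags were left out and spots of a probe averaged. Probes were named by RefSeq accession in a table of GRCm38.p6, which gave 26055 of 39429 probes 1 of 19751 symbols. Values are log2 of the signal minus the 75th percentile of the array. Probes not well above background on 2 or more arrays were dropped. Each gene was represented by its brightest remaining probe on average, which left 15834 genes. Levels of different probes were not set against each other. Tests were run in limma 3.58.1 under R 4.3.3 (1 mean per group, two-sided, Benjamini-Hochberg over all genes, called below 0.05, n = 2 mice per group). Contrasts were AKP::Keap1 minus AKP over both sexes and within each, their interaction, and female minus male. The fit was tested on simulated data. A gene that passed the background test on no array of 1 genotype was given as a bound, with each dim value set no lower than that array's lowest signal passing the background test.

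Values per mouse are given for members called by genotype with a difference of at least 1 on the log2 scale, for 5 others with the smallest adjusted p, and for Lama3, Itgam, Itgb7 and Itgal, which were added after their values were seen. A result that meets these rules is not reported here by name, though the counts include it. Pathway genes named are up to 4 called higher and 4 called lower with the smallest adjusted p, plus Ntn4 and Tln1. Members and lists were chosen with earlier results of these data known. Alternatives were other scalings, background corrections, filters, probe rules and variance models, the slide or the replicate number as a block, and each mouse left out. The fit with the slide as a block had terms for genotype and sex but none for their interaction. Because each slide holds 1 group, it cannot separate a slide effect from that interaction.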

Additional observations from a re-analysis of the deposited data

How the results depend on the processing

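By genotype, between 13 and 18 members were higher under every alternative run, against 17 as reported, and 10 of the 19 called members kept their call and direction in all of them, while 9 lost the call in at least 1 and none reversed. Of the 14 uncalled members 3 gained a call in 1 alternative each, Itga11 and Itga2b (0.48, adjusted p = 0.0285) without 1 mouse and Lama1 (0.50, adjusted p = 0.03) on the series matrix values. On those unscaled values, where the median of all genes moved to 0.31, 1 member was lower by genotype, and of all genes 5703 were higher and 646 lower, against 3456 and 2729 as reported and 2176 and 3954 with normexp. With normexp, where the male median of all genes was -0.23, the male differences of Itga2 and Itgb6 turned to -0.30 and -0.033. On the series matrix values, where the male median of all genes was 0.48, the male difference of Itgb1 turned to 0.13. The male count of lower members, 1 as reported, was 2 with quantile normalization and with trended robust variances, 3 with the array median and with probes above background on all arrays, 4 with normexp, and 0 with the series matrix, no filter, the replicate block, males fitted alone, or any 1 mouse left out. Leaving out 1 mouse gave 3 to 14 members higher in males, 0 to 10 higher and 1 to 2 lower in females, and 3 to 9 called by sex. In females 2 were higher when fitted alone, and 1 was lower with the mean of kept probes. The interaction called 1 member with the stricter filter, with mean probes and with trended robust variances. By sex 2 members were called with the series matrix and 1 with the slide block. The labels do not say whether the replicate numbers pair the mice. Correlations of deviations between the groups lay between -0.16 and 0.12, which shows no pairing but cannot exclude it with 2 mice per group. With the replicate block 17 members were higher and 2 lower by genotype, 13 higher in males and 9 higher in females. With 2 mice per group the number of arrays limits the precision. The values of dim genes such as Itga2 and Itgb6 depend on the background correction and its offset (50 with normexp).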

Other observations

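Markers of dividing cells, a list of 8 genes, were all higher by genotype, against 21.8% of all genes called higher, with a median difference of 1.79. Their mean level was -2.76 to -2.52 in KPKM against -4.46 to -4.12 in KPM mice, and -2.18 to -1.25 in KPKF against -3.73 to -3.71 in KPF mice. Of 8 mesothelial markers, 2 (25%) were higher, the keratin genes Krt8 and Krt18, which other epithelia also express. The mean of the mesothelial list overlapped between the groups, with -1.27 to -0.88 in KPKM against -1.62 to -0.53 in KPM mice, and -0.35 to -0.29 in KPKF against -0.91 to -0.07 in KPF mice.

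Both members that were not tested were dim. Itgad, a leukocyte integrin subunit, was well above background on 1 array and Itgb8, an epithelial and glial subunit, on 0 of 8 arrays.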
